A study of Arabidopsis thaliana with 9 samples.

Results

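The suberin synthesis genes of Arabidopsis thaliana described here are FAR1 (AT5G22500), FAR4 (AT3G44540), FAR5 (AT3G44550), GPAT5 (AT3G11430), CYP86A1 (AT5G58860), CYP86B1 (AT5G23190), ASFT (AT5G41040), KCS2 (AT1G04220) and KCS20 (AT5G43760). They were chosen by gene identifier, and are 9 of the 29071 genes held in the deposited tables. All 9 were measured in every library. In the coordinates of the deposited tables, which for these genes equal those of assembly TAIR10.1, FAR1 lies at chr5:7470328-7474133 (plus strand), FAR4 at chr3:16123426-16128030 (plus strand) and FAR5 at chr3:16137576-16142270 (plus strand). GPAT5 lies at chr3:3595694-3597952 (plus strand), CYP86A1 at chr5:23765791-23768111 (minus strand) and CYP86B1 at chr5:7803141-7805968 (minus strand). ASFT lies at chr5:16431304-16433305 (plus strand), KCS2 at chr1:1119699-1122786 (minus strand) and KCS20 at chr5:17585523-17588733 (plus strand). The 9 were chosen with results of these libraries known, so their levels and differences are given as descriptions, with no p-value.

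RNA was sequenced from whole seedlings of the wild type accession Col-0, 7 days old and raised on Murashige and Skoog medium. The 3 groups were seedlings given water, doxycycline or ethidium bromide (EtBr), with 3 libraries each. No dose, duration or separate culture of the replicates is stated in the labels, so the spread between libraries may be technical. The series title names the mitochondrial unfolded protein response as its subject. Doxycycline blocks translation on bacterial-type ribosomes, such as those of mitochondria and plastids, and EtBr is a DNA-binding dye that disturbs organelle genomes. A whole seedling joins root and shoot RNA.

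Suberin is a polyester of fatty acid derivatives, glycerol and ferulic acid that is laid down in the walls of root endodermis, periderm, seed coats and wounds, where it restricts the passage of water and solutes. Its aliphatic chains are elongated by ketoacyl-CoA synthases such as KCS2 and KCS20 and oxidized at their far end by the cytochrome P450 enzymes CYP86A1 and CYP86B1. Some are reduced to primary alcohols by the reductases FAR1, FAR4 and FAR5. GPAT5 joins acyl chains to glycerol, and ASFT transfers feruloyl groups to them.

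The sequence just upstream of a gene is where many of its regulators bind. The 250 bases before the annotated start were read for the 9 genes from the RefSeq genome of assembly TAIR10.1. All 9 have the same start and end there as in the deposited tables. Each was searched on both strands for the AC elements ACCTAC and ACCAAC bound by MYB factors, for ACGTG, the core of the abscisic acid response element, and for TTGAC, the core of the W-box. Upstream stretches of 4 genes are shown 5′ to 3′ along the gene's strand, with each match in capitals (a TTGAC on the opposite strand reads GTCAA, and an ACGTG reads CACGT). GPAT5 and CYP86B1 are shown for the largest doxycycline to water folds of the 9, FAR4 as the gene that lay lowest under EtBr relative to water, and FAR1 as the one that lay higher under EtBr than in either other group.
GPAT5, chr3:3595444-3595693, plus strand: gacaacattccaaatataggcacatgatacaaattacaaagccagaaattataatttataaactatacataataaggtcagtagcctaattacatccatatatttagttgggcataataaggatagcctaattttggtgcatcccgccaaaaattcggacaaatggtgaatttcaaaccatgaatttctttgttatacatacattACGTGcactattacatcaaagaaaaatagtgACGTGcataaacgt
CYP86B1, chr5:7805969-7806218, minus strand: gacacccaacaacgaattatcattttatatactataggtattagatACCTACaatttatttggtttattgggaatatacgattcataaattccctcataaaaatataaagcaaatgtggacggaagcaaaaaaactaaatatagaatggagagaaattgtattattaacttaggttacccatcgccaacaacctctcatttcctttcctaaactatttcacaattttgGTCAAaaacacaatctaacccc
FAR4, chr3:16123176-16123425, plus strand: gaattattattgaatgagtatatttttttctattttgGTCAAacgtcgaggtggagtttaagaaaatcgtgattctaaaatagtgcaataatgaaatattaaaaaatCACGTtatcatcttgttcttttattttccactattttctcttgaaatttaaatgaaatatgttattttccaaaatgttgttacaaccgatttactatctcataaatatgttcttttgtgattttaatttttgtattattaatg
FAR1, chr5:7470078-7470327, plus strand: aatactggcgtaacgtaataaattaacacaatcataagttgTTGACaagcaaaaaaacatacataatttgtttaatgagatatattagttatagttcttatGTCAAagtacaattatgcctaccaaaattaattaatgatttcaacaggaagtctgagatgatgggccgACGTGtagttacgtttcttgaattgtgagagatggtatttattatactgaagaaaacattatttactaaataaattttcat

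GPAT5 held 2 copies of ACGTG, and FAR1 and FAR4 held 1 each, so 3 of 9 genes had it beside 23.3% of 25753 protein-coding genes. ACCTAC stood upstream of CYP86B1 alone among the 9, beside 4.64% of all. ACCAAC stood upstream of 0 of 9, beside 11.5% of all. TTGAC was present in 5 of 9 (FAR1, FAR4, FAR5, CYP86B1 and ASFT), beside 45% of all. No match was found upstream of CYP86A1, KCS2 or KCS20. Genes with and without a match were found among those high under doxycycline. A match in this window is a description of its letters and not a binding site.

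Under doxycycline 8 of the 9 genes had all 3 libraries above all 3 water libraries, and KCS20 was the exception, where 15.4% of all genes tested had such a gap. Under EtBr the genes divided: FAR1 lay above water in every library, FAR4, ASFT, KCS2 and KCS20 lay below it, and FAR5, GPAT5, CYP86A1 and CYP86B1 overlapped it. Of all genes tested under EtBr, 37.1% lay above water in every library and 23.9% below it. Levels are normalized counts, which are read counts divided by size factors set over all 9 libraries. In whole seedlings, more or fewer suberized cells and more or less RNA per cell cannot be told apart.

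**Figure D1:**
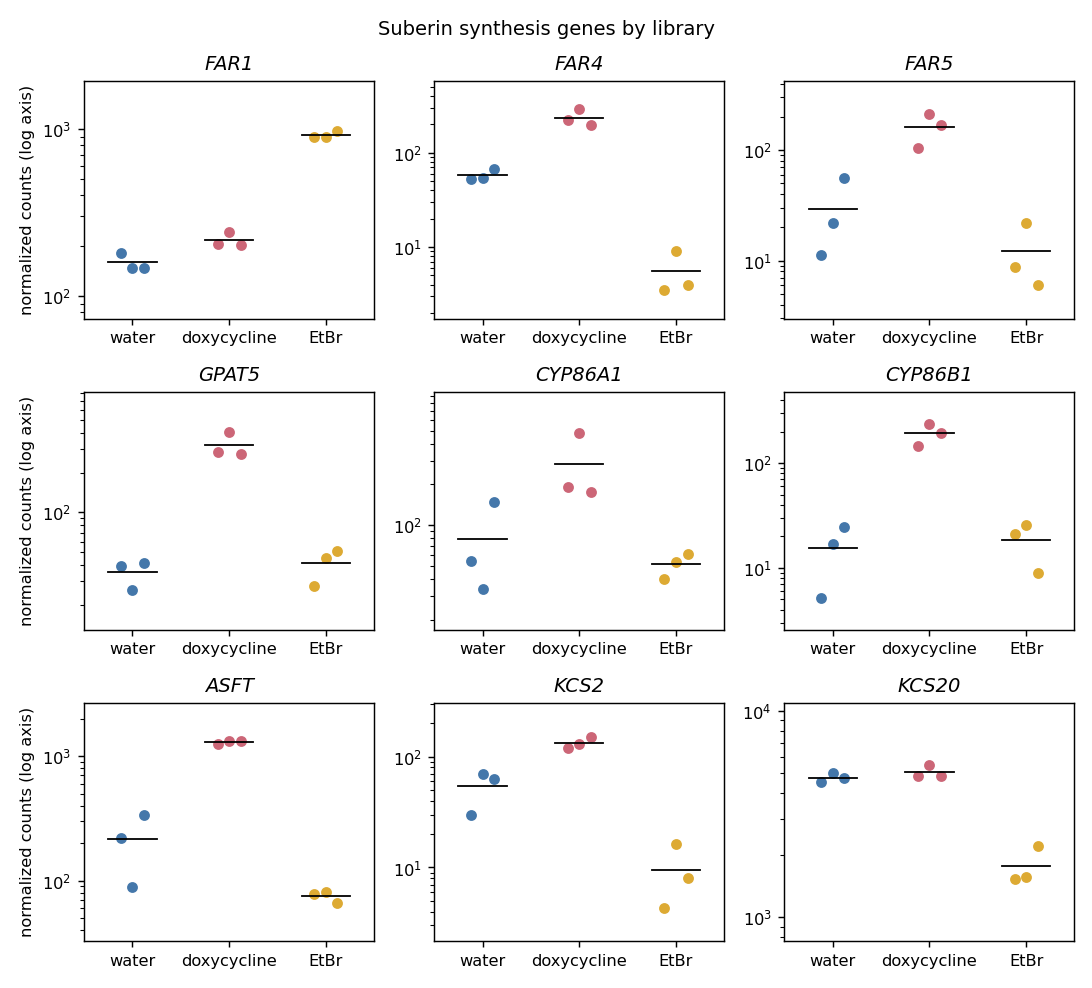
Normalized counts of the 9 suberin synthesis genes in each library (points; log axis, with its own range for each gene) under water, doxycycline and EtBr, with the group mean as a line (n = 3 each). Doxycycline points lie above all water points for every gene but KCS20, and EtBr points lie above all others for FAR1 alone.

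Among the elongases, KCS2 had normalized counts of 29.8, 69.3 and 62.8 in the water libraries, 120, 131 and 152 under doxycycline and 4.35, 16.4 and 7.96 under EtBr. The 3 groups did not overlap, with doxycycline highest and EtBr lowest. Its mean was 53.9 ± 21.2 in water (SD, n = 3), 134 ± 16.3 under doxycycline and 9.56 ± 6.16 under EtBr, which is 2.49-fold higher and 5.65-fold lower than water. KCS20, the related elongase, gave 4525, 5002 and 4714 in water, 4857, 5431 and 4852 under doxycycline and 1538, 1562 and 2219 under EtBr. Doxycycline and water overlapped for KCS20, while each EtBr library lay below all others. The KCS20 mean was 4747 ± 240.2 in water, 5047 ± 333 under doxycycline and 1773 ± 386 under EtBr.

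KCS20 was also the most abundant of the 9 per length, at 2141 normalized counts per kilobase in water against 117.96 for ASFT, the next highest. It supplied 84.2% to 91.6% of the summed normalized counts of the 9 genes in the water libraries, 62.1% to 65.8% under doxycycline and 57.6% to 65.5% under EtBr. The other 8 genes together summed to 457 to 883 in water, 2529 to 3310 under doxycycline and 1073 to 1171 under EtBr. A total over the 9 genes is therefore mostly KCS20 in every group. Of the EtBr sum of the other 8, FAR1 alone made up 889 to 967.

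KCS2 and KCS20 are close copies, with 80.2% identity over their aligned transcripts. The longest stretch identical in both lies within their coding sequences and is 53 bases long, shown because reads that fall wholly inside it belong equally to either gene.
KCS2 and KCS20: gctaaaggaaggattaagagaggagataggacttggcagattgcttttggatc

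With no read length in the labels, how many reads such a stretch could move between KCS2 and KCS20 was not tested. KCS2 also overlaps the antisense RNA gene AT1G04247 over 2302 bases, and the labels do not say whether counting used strand. AT1G04247 stood at 10.3 ± 5.24 normalized counts in water, 20.1 ± 6.32 under doxycycline and 4.14 ± 4.04 under EtBr (SD, n = 3). KCS2 also shares 41 bases with AT1G04210 on the opposite strand, at 981 ± 75.1, 1119 ± 138 and 1168 ± 156, in that order. Whether reads of either gene add to KCS2 was not tested.

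For the oxidases, CYP86A1, which hydroxylates long-chain fatty acids, had normalized counts of 54.5, 33.6 and 147.9 in water, 191, 480 and 174 under doxycycline and 40.0, 53.6 and 60.7 under EtBr. Water replicate 3 and doxycycline replicate 2 stood well above their groups. Means were 78.7 ± 60.8, 282 ± 172 and 51.4 ± 10.5, in that order. CYP86B1, which acts on very-long-chain fatty acids, gave 5.14, 16.8 and 24.5 in water, 144, 238 and 195 under doxycycline and 20.9, 25.5 and 8.95 under EtBr. Every doxycycline library lay far above all others, and EtBr overlapped water. The doxycycline mean of 192 ± 46.9 was 12.4-fold the water mean of 15.5 ± 9.74, the largest such ratio of the 9 genes. CYP86B1 and its paralog CYP86B2 share 78.7% identity and an identical run of 29 bases, the longest run of CYP86B1 with any relative examined. CYP86B2 had 1.03, 2.97 and 0 normalized counts in water, 77.8, 35.5 and 106.0 under doxycycline and 53.9, 31.8 and 51.7 under EtBr, so unlike CYP86B1 it lay above water under both agents.

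The fatty acyl reductases FAR5, FAR4 and FAR1 make alcohols of increasing chain length. FAR5 gave 11.3, 21.8 and 55.3 normalized counts in water, 104, 211 and 168 under doxycycline and 8.69, 21.8 and 5.97 under EtBr. Doxycycline stood apart, and EtBr overlapped water. FAR4 gave 52.4, 54.4 and 67.0 in water, 221, 289 and 196 under doxycycline and 3.48, 9.09 and 3.98 under EtBr. Its 3 groups were fully separate, and EtBr left 18 FAR4 reads over the 3 libraries, against 169 in water and 693 under doxycycline. The FAR4 mean under EtBr was 10.5-fold below water and 42.6-fold below doxycycline.

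FAR1 went another way. It had 182, 146 and 147.9 normalized counts in water, 205, 243 and 201 under doxycycline and 889, 896 and 967 under EtBr. EtBr libraries lay in a narrow band far above the rest, and the doxycycline libraries lay just above water. The EtBr mean of 918 ± 42.98 was 5.78-fold the water mean of 159 ± 20.04, and the doxycycline mean of 216 ± 23.4 was 1.36-fold. FAR4 and FAR5 lie near each other on chromosome 3 and FAR1 lies on chromosome 5. FAR4 and FAR1 share 72.9% identity, with no identical run longer than 28 bases. FAR1 overlaps AT5G22505, a protein-coding gene not analysed here, over 1310 bases, and whether reads from it add to FAR1 was not tested.

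GPAT5, the acyltransferase, had 39.0, 25.7 and 41.5 normalized counts in water, 286, 408 and 275 under doxycycline and 27.8, 45.5 and 50.7 under EtBr. The doxycycline libraries stood apart from all others. The doxycycline mean of 323 ± 74.0 was 9.12-fold the water mean of 35.4 ± 8.48 (SD, n = 3), and the EtBr mean was 41.3 ± 12.001. ASFT, the feruloyltransferase, gave 219.9, 89.1 and 336 in water, 1258, 1311 and 1328 under doxycycline and 78.2, 80.9 and 65.7 under EtBr. Its 3 groups did not overlap, and the treated groups were tight where water was not. Means were 215 ± 124 in water, 1299 ± 36.6 under doxycycline and 74.9 ± 8.14 under EtBr, a 6.04-fold higher and a 2.87-fold lower level than water. ASFT shares 63 bases with AT5G41050 on the opposite strand, at 241 ± 23.4, 251 ± 15.0 and 125 ± 19.7, in that order. Whether reads of AT5G41050 add to ASFT was not tested.

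Water replicate 3 was the highest water library for 6 of the 9 genes and the lowest for 0. Doxycycline replicate 2 was the highest of its group for 7 and the lowest for 0. Per length, the order of mean levels in water ran from KCS20 and ASFT through FAR1, CYP86A1, KCS2, FAR4, GPAT5 and FAR5 to CYP86B1, at 6.65 normalized counts per kilobase. KCS20 stood clear of the rest, and the libraries of each other gene overlapped those of its neighbour in this order. Under doxycycline ASFT reached 712 normalized counts per kilobase, GPAT5 161 and CYP86A1 151. Under EtBr FAR1 was second to KCS20, at 405 normalized counts per kilobase, and FAR4 was lowest at 1.88.

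The question put to the 2 tables was how each agent moved these genes relative to water. Differences are on the log2(value + 1) scale with their standard errors from limma, fitted to all genes of a table. Under doxycycline they were 3.73 ± 0.49 for CYP86B1, 3.14 ± 0.27 for GPAT5 and 2.77 ± 0.37 for ASFT. They were 2.62 ± 0.51 for FAR5, 1.98 ± 0.23 for FAR4 and 1.93 ± 0.52 for CYP86A1. KCS2 stood at 1.37 ± 0.33, FAR1 at 0.43 ± 0.18 and KCS20 at 0.07 ± 0.11. The differences of FAR5 and CYP86A1 were 3.21 and 2.52 without water replicate 3, and that of CYP86B1 was 3.14 without water replicate 1. The median of the 9 differences was 1.98, where the median over all genes was −0.01. At a limma adjusted p under 0.05, 7 genes were past the threshold as higher and 0 as lower (0 also at an unadjusted p under 0.05), where 6.47% of 24434 genes were called higher and 5.27% lower. By edgeR the counts were also 7 and 0, where it called 7.61% and 6.9% of the genes it tested. FAR1 and KCS20 were not past it, and CYP86A1 was not past 0.05 by the authors' adjusted p. Since the 9 were chosen with results of these libraries known, their counts past a threshold, here and below, describe them and test nothing.

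**Figure D2:**
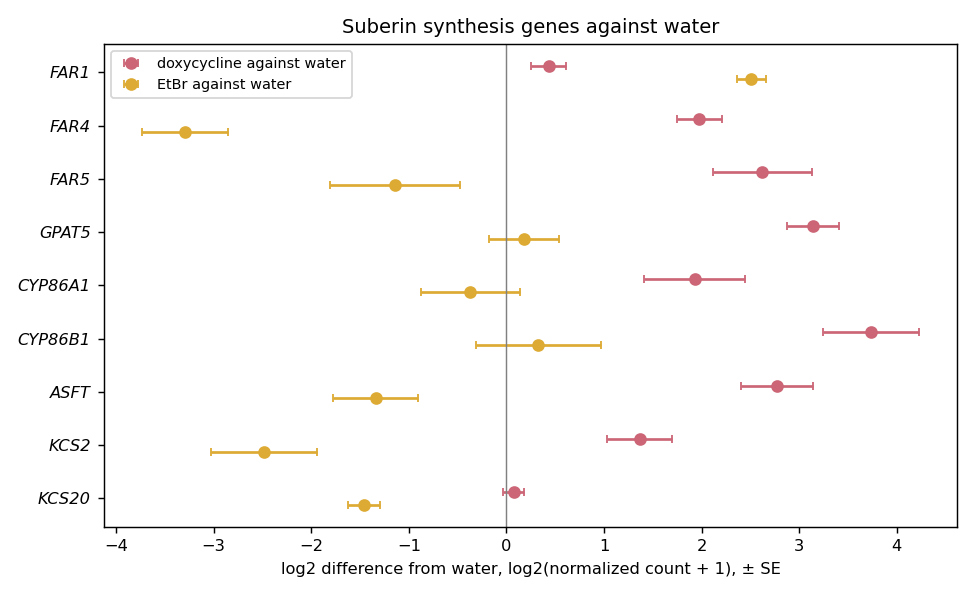
Difference from water on the log2(normalized count + 1) scale for each suberin synthesis gene under doxycycline and EtBr, as points with bars for the standard error (limma, 3 against 3 libraries). Doxycycline points run from 0.07 for KCS20 to 3.73 for CYP86B1, and EtBr points from −3.29 for FAR4 to 2.51 for FAR1.

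Under EtBr the differences from water were 2.51 ± 0.15 for FAR1, 0.33 ± 0.64 for CYP86B1 and 0.18 ± 0.36 for GPAT5. They were −0.37 ± 0.51 for CYP86A1, −1.14 ± 0.67 for FAR5 and −1.34 ± 0.44 for ASFT. KCS20 stood at −1.46 ± 0.16, KCS2 at −2.48 ± 0.54 and FAR4 at −3.29 ± 0.44. For 3 genes near 0 the sign rested on 1 library: CYP86A1 stood at 0.21 without water replicate 3, CYP86B1 at −0.27 without water replicate 1 and GPAT5 at −0.03 without water replicate 2. The median of the 9 was −1.14, and −0.56 without water replicate 3. Over all genes the median was 0.39, and over genes with a mean of at least 10 it was 0.09. At the same threshold 1 gene was higher (FAR1) and 4 were lower (FAR4, ASFT, KCS2 and KCS20). The share of all genes past the threshold was larger than under doxycycline, with 34.2% of 28956 genes called higher and 21.2% lower. The counts by edgeR were also 1 and 4, where it called 34.3% and 28.1% of the genes it tested.

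The doxycycline and EtBr comparisons share the water libraries, so the agents were also set against each other on the common scale. EtBr minus doxycycline was −5.26 ± 0.39 for FAR4, −4.10 ± 0.12 for ASFT and −3.84 ± 0.45 for KCS2. It was −3.75 ± 0.51 for FAR5, −3.40 ± 0.42 for CYP86B1 and −2.96 ± 0.29 for GPAT5. CYP86A1 stood at −2.29 ± 0.41, KCS20 at −1.53 ± 0.16 and FAR1 at 2.08 ± 0.11. Every gene but FAR1 was thus lower under EtBr than under doxycycline, with no overlap between libraries in any of the 9. The median was −3.40, where that over all genes was 0.14 with these size factors and 0.27 when libraries were scaled to their total reads instead. Past the threshold 8 were lower and 1 higher, where 24.8% of 24319 genes were called lower and 32.4% higher. With edgeR they were 8 and 1 as well, where it called 30.8% lower and 32% higher. No library of EtBr overlapped doxycycline for 28.3% of genes in the lower and 36.4% in the higher direction.

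Across the 9 libraries the log2 levels of 7 of the genes ran together: the Pearson correlation of each with the mean of the other 8 was 0.84 to 0.96 for KCS2, CYP86B1, FAR4, CYP86A1, GPAT5, ASFT and FAR5. It was 0.62 for KCS20 and −0.65 for FAR1. These correlations describe 3 groups of 3 libraries and carry no test. Over 17180 other genes with a mean of at least 50 the 10 most like the mean pattern of the 9 had correlations of 0.964 to 0.985. They were EDA4 (0.985), PELPK1 (0.980), PER20 (0.978), AT2G03200 (0.977), DOX1 (0.977), AT2G26230 (0.976), ABCG20 (0.970), UGT90A1 (0.970), AT1G56320 (0.965) and PER11 (0.964). EDA4 stood at 145 ± 72.4 normalized counts in water, 656 ± 114 under doxycycline and 48.9 ± 16.9 under EtBr. PELPK1, a cell wall protein gene, stood at 184 ± 90.97, 3163 ± 1008 and 105 ± 58.9, in that order. DOX1, an alpha-dioxygenase gene of fatty acid oxidation, stood at 1747 ± 501, 10685 ± 179 and 793 ± 139. PER11, a peroxidase gene, stood at 42.8 ± 35.9, 536.9 ± 67.3 and 34.3 ± 16.0. The 10 were picked by this measure alone, so their values carry no test. ABCG20 also stands among the pathway genes that follow.

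Other genes of the pathway were counted in the same fits, which called 6.47% of all genes higher and 5.27% lower under doxycycline. The lists here and below were also chosen with earlier results of these data known. Their counts and p-values therefore describe them and are no independent test of a suberin response. Of 14 measured genes for further acyl transfer, activation, elongation and export, 4 rose under doxycycline and 0 fell (1 fell at an unadjusted p under 0.05, and 0 by edgeR), and 10 did not pass. Their median difference was 0.41. GPAT7, the close relative of GPAT5 linked to wound suberin, had 8.22, 4.95 and 16.0 normalized counts in water and 258, 319 and 226 under doxycycline. All doxycycline libraries were above all water libraries, by 4.75 ± 0.40 on the log2 scale (limma adjusted p = 3.9e-05). ABCG6, an exporter needed for the suberin barrier, had 26.7, 18.8 and 88.3 in water and 669, 903 and 663 under doxycycline. Its difference was 4.32 ± 0.46 (limma adjusted p = 0.00021), and 4.97 without water replicate 3, the highest of its group. ABCG16, another exporter, rose from 58.9 ± 1.65 to 712 ± 78.2 normalized counts (3.55 ± 0.16, limma adjusted p = 8.4e-07). ABCG20 rose from 204 ± 15.8 to 414 ± 86.9 (0.98 ± 0.18, limma adjusted p = 0.0064), a call lost without any 1 of water replicate 1, 2 or 3 or doxycycline replicate 2 or 3 (limma adjusted p = 0.051 to 0.098). LTPG15, a lipid transfer protein gene of seed coat suberin, stood at 137 ± 90.9 in water and 296 ± 56.4 under doxycycline and did not pass (limma adjusted p = 0.053). ABCG2 was not analysed here.

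The genes of general chain elongation did not pass under doxycycline. KCS1 stood at 1071 ± 150 normalized counts in water and 1363 ± 236 under doxycycline, the reductase KCR1 at 1347 ± 197 and 1428 ± 62.5, the dehydratase PAS2 at 1403 ± 254 and 1062 ± 39.9 and the enoyl reductase CER10 at 1271 ± 174 and 1128 ± 89.0. Nor did FACT (121 ± 31.1 and 207 ± 63.4), which makes alkyl caffeates of root waxes, the acyl-CoA synthetase LACS2 (339 ± 72.3 and 273 ± 74.6), KCS9 (752 ± 78.1 and 827 ± 52.1), or the exporters ABCG1 (330.1 ± 132 and 440.0 ± 29.1) and ABCG11 (865 ± 78.2 and 841 ± 104).

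Under EtBr 1 of these 14 rose, 7 fell and 6 did not pass, where 34.2% of all genes were called higher and 21.2% lower. The median difference of the 14 was −0.89, beside 0.39 over all genes and 0.09 over genes with a mean of at least 10. ABCG1, a suberin exporter, rose from 330.1 ± 132 to 2510 ± 1229 normalized counts (2.88 ± 0.39, limma adjusted p = 0.0004), with EtBr replicate 3 at 3917 against 1646 and 1969. The genes that fell were LACS2 (−2.56 ± 0.29), LTPG15 (−1.96 ± 0.48), PAS2 (−1.51 ± 0.16), KCS1 (−1.35 ± 0.16), FACT (−1.34 ± 0.34), KCR1 (−1.29 ± 0.14) and CER10 (−0.96 ± 0.16), at limma adjusted p values of 0.00012 to 0.0097. LTPG15 was lost without EtBr replicate 1 or 3 (limma adjusted p = 0.073 and 0.066). ABCG6 stood at 44.6 ± 38.1 in water and 70.2 ± 19.5 under EtBr and did not pass, but it did without water replicate 3 (1.54, limma adjusted p = 0.017), which makes 2 genes that rose. The count of genes that rose was also 2 without EtBr replicate 3. GPAT7 did not pass (8.29 ± 7.20 under EtBr), nor did ABCG16 (63.7 ± 15.7), ABCG20 (174 ± 11.8), ABCG11 (1130 ± 332) or KCS9 (663 ± 21.3). Set directly against doxycycline, EtBr left 12 of the 14 lower and 1 higher, where 24.8% and 32.4% of all genes were called.

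**Figure D3:**
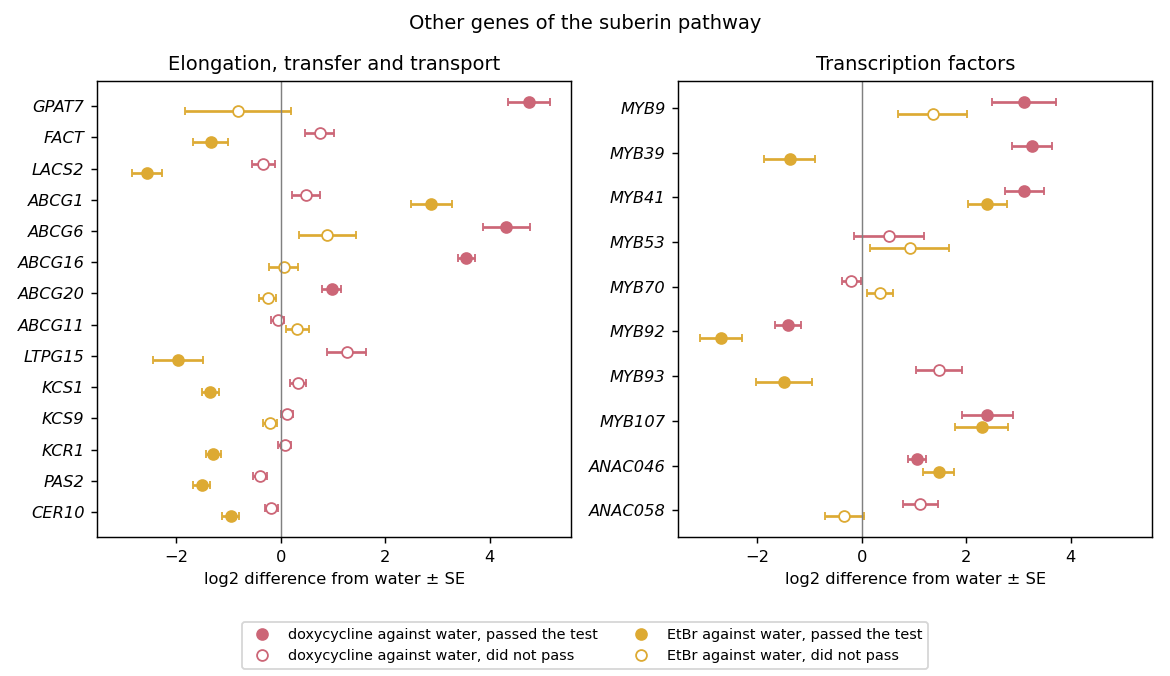
Difference from water on the log2(normalized count + 1) scale, with bars for the standard error, for 14 other suberin pathway genes and 10 transcription factors linked to suberin under doxycycline and EtBr. Filled points passed the limma test at an adjusted p under 0.05 and open points did not; GPAT7, ABCG6 and ABCG16 lie above 3 under doxycycline and near 0 or with wide bars under EtBr.

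Of 10 transcription factors linked to suberin, 5 rose under doxycycline, 1 fell and 4 did not pass, with a median of 1.30. Over all genes 6.47% were called higher and 5.27% lower. MYB39, also called SUBERMAN and an activator of endodermal suberin, gave 13.4, 42.5 and 29.8 normalized counts in water, 278, 214 and 290.5 under doxycycline and 7.82, 10.9 and 9.95 under EtBr. Doxycycline libraries were above and EtBr libraries below all water libraries, by 3.26 ± 0.38 (limma adjusted p = 0.00039) and −1.38 ± 0.49 (limma adjusted p = 0.042). MYB41, which switches on suberin genes when overexpressed, gave 8.22, 5.94 and 7.45 in water, 92.1, 57.7 and 65.2 under doxycycline and 47.8, 33.6 and 47.8 under EtBr. It was above water in every library under both agents, by 3.11 ± 0.38 (limma adjusted p = 0.00053) and 2.40 ± 0.37 (limma adjusted p = 0.00084). MYB9 and MYB107, activators of seed coat suberin, rose under doxycycline by 3.10 ± 0.62 and 2.40 ± 0.49 (limma adjusted p = 0.0096 and 0.011), from means of 1.69 ± 1.56 and 10.7 ± 6.46 to 19.7 ± 5.61 and 54.7 ± 9.404. MYB9 lies over 1447 bases of DOT2, on the opposite strand. DOT2 stood at 994 ± 54.5 normalized counts in water, 1153 ± 47.7 under doxycycline and 2225 ± 70.5 under EtBr, where MYB9 stood at 5.36 ± 3.12. Whether reads of DOT2 enter the low MYB9 level was not tested.

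ANAC046, an activator of root suberin genes, rose from 284 ± 68.2 to 587 ± 31.2 normalized counts under doxycycline (1.06 ± 0.17, limma adjusted p = 0.003). MYB92 fell from 184 ± 51.7 to 67.6 ± 5.66 (−1.41 ± 0.25, limma adjusted p = 0.0048). It is named with MYB41, MYB53 and MYB93 as a promoter of endodermal suberin, and of these 4 it was lower where MYB41 was higher. MYB93 (31.1 ± 15.1 and 82.8 ± 20.4) and ANAC058 (44.1 ± 14.2 and 96.0 ± 22.2) did not pass (limma adjusted p = 0.054 and 0.053), but MYB93 and ANAC058 did where genes with a mean under 10 were left out (limma adjusted p = 0.046 and 0.041). MYB53 (12.9 ± 10.97 and 18.3 ± 10.7) and MYB70 (427 ± 101 and 369 ± 42.3) did not pass either. Leaving out 1 library cost calls: only 2 factors were called higher without water replicate 2 or any 1 doxycycline replicate, since MYB9, MYB107 and ANAC046 were lost (limma adjusted p = 0.052 to 0.12), ANAC046 was also lost without water replicate 3 (limma adjusted p = 0.072), and MYB92 was lost without any 1 doxycycline replicate (limma adjusted p = 0.063 to 0.075).

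Under EtBr 3 factors rose, 3 fell and 4 did not pass, with a median of 0.64. The shares over all genes were 34.2% higher and 21.2% lower. MYB107 rose by 2.30 ± 0.51 and ANAC046 by 1.47 ± 0.29 (limma adjusted p = 0.0052 and 0.0031), beside MYB41. MYB92 (−2.70 ± 0.40, limma adjusted p = 0.00066) and MYB93 (−1.49 ± 0.53, limma adjusted p = 0.042) fell, as did MYB39. MYB107 was lost without EtBr replicate 2 (limma adjusted p = 0.052). MYB39 and MYB93 were lost without water replicate 3 or any 1 EtBr replicate (limma adjusted p = 0.10 to 0.15), which left 1 factor lower, and when libraries were scaled to their total reads (limma adjusted p = 0.063 and 0.058). MYB39 was also lost without water replicate 2 and MYB93 without water replicate 1 (limma adjusted p = 0.14 and 0.13). Against doxycycline, EtBr left 5 factors lower and 0 higher (1 at an unadjusted p under 0.05, 0 by edgeR). MYB39 had the largest such difference of the 10, at −4.63 ± 0.25 (limma adjusted p = 5e-05). The count of 5 was 3 without doxycycline replicate 1 or 2, where MYB9 and MYB92 were lost, and the count of 0 was 1 without EtBr replicate 1.

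The phenylpropanoid genes supply ferulate. Under doxycycline 1 of 14 rose, 3 fell and 10 did not pass, with a median of −0.36. The same fit called 6.47% of all genes higher and 5.27% lower. PAL4, a phenylalanine ammonia-lyase gene, rose from 74.4 ± 26.8 to 302.1 ± 137 normalized counts (1.96 ± 0.33, limma adjusted p = 0.0039). It was lost without water replicate 1 or 2 or any 1 doxycycline replicate (limma adjusted p = 0.062 to 0.082). The 3 that fell, named after their values were seen, were 4CL1, 4CL2 and COMT1, and 0 were called without any 1 of water replicate 1 or 3 or the doxycycline replicates. REF1, an aldehyde dehydrogenase gene that makes ferulate, stood at 4948 ± 958 in water and 5667 ± 165 under doxycycline and did not pass. Under EtBr 5 of 14 fell and 0 rose (0 at an unadjusted p under 0.05 and by edgeR). Of all genes 21.2% fell and 34.2% rose. REF1 fell to 2327 ± 172 (limma adjusted p = 0.00075), and the ligase gene 4CL5 fell from 274 ± 45.6 to 123 ± 25.4 (limma adjusted p = 0.0022). The 5 were 3 without water replicate 1 or 3 or EtBr replicate 1 or 2, and 8 without EtBr replicate 3.

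Cutin and wax genes serve the shoot surface with enzymes of the same families. Under doxycycline, where 6.47% of all genes were called higher and 5.27% lower, 24 measured genes gave 1 higher, 2 lower and 21 not passing. The median of the 24 was −0.25. The one that rose was GPAT6, a cutin acyltransferase gene, and CER4 and GPAT8 fell. All 3 were named after their values were seen. CER4 was near the floor, with 13 reads over the water libraries and 0 under doxycycline. GPAT6 was lost without any 1 of the 6 libraries, and the count of 2 was 0 without water replicate 2 or any 1 doxycycline replicate and 1 without water replicate 3. Under EtBr 4 of 24 rose and 13 fell, with a median of −0.74, where 34.2% of all genes rose and 21.2% fell. GPAT4, a cutin relative of GPAT5, fell from 1218 ± 156 to 317 ± 23.6 normalized counts (−1.96 ± 0.14, limma adjusted p = 2.4e-05). CER3, of wax alkane synthesis, fell from 1307 ± 98.2 to 514 ± 35.9 (limma adjusted p = 6.3e-05) and HTH, of cutin monomer oxidation, from 657 ± 118 to 184 ± 17.7 (limma adjusted p = 7.9e-05). The 4 that rose were 2 without EtBr replicate 1.

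**Figure D4:**
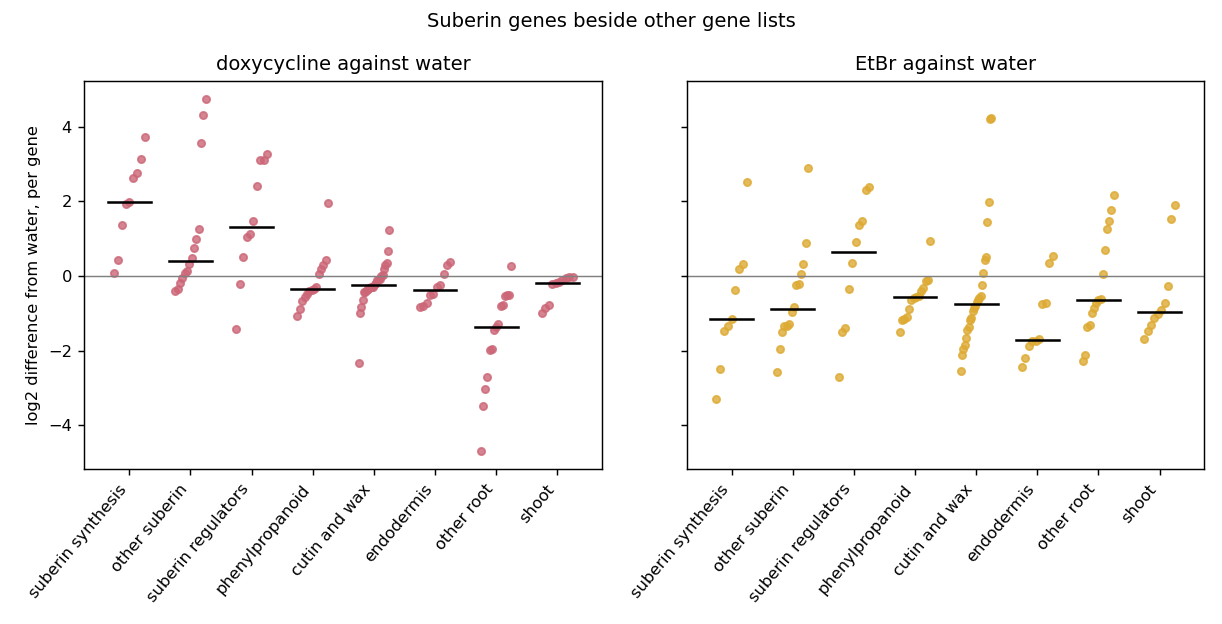
Difference from water on the log2(normalized count + 1) scale of each measured gene (points) in 8 gene lists under doxycycline and EtBr, with the list's median as a line. Under doxycycline the medians of the suberin synthesis genes (1.98) and suberin regulators (1.30) lie above 0 and that of other root markers (−1.37) below it.

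Cell type markers were read beside these groups, since suberin in a seedling is mainly made in the root. Under doxycycline 6.47% of all genes were called higher and 5.27% lower. Of 10 endodermis markers 0 rose and 0 fell under doxycycline (0 and 2 at an unadjusted p under 0.05, 0 and 0 by edgeR), with a median of −0.38. Their summed normalized counts were 1314 to 1680 under doxycycline and 1410 to 1772 in water. CASP1, a Casparian strip protein gene, stood at 268 ± 49.4 in water and 157 ± 62.1 under doxycycline, and PER64, a Casparian strip peroxidase gene, at 181 ± 15.3 and 115 ± 37.6, without passing. The sums of both groups overlapped. Among 15 other root markers 0 rose (0 at an unadjusted p under 0.05 and by edgeR) and 6 fell, with sums of 1228 to 1467 against 2305 to 3204 in water. PHO1, described below, made up most of the water sum. EXPA18, a root hair expansin gene, had 18.5, 16.8 and 52.1 in water and 0 reads in each doxycycline library. PHO1, a phosphate exporter gene of the root stele, fell from 1563 ± 222 to 590 ± 153 (limma adjusted p = 0.00096), a call lost without water replicate 3 or doxycycline replicate 1 (limma adjusted p = 0.064 and 0.05). PRP3, a root hair wall protein gene, fell from 132 ± 100.2 to 9.17 ± 1.07 (limma adjusted p = 0.0012) and was lost without doxycycline replicate 2 or 3 (limma adjusted p = 0.054 in both). The 6 were 3 without water replicate 1 or 2 and 2 without water replicate 3 or any 1 doxycycline replicate.

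Under EtBr 34.2% of all genes were called higher and 21.2% lower. Of the 10 endodermis markers 7 fell (6 by edgeR) and 0 rose (1 at an unadjusted p under 0.05, 0 by edgeR), with a median of −1.71. Their sums were 875 to 932, all below water. ESB1 was at 0 reads, but it had only 11 reads over the 3 water libraries and 7 under doxycycline. CASP1 fell to 73.2 ± 14.001 normalized counts (limma adjusted p = 0.00025) and PER64 to 55.6 ± 12.7 (limma adjusted p = 0.00047). Of the 10, 2 had differences from water above 0 without passing, CASP2 and CASP4, both named after their values were seen. CASP2 lay above water in every library, at 243 ± 38.9 against 165 ± 31.8, and CASP4 overlapped water. Among other root markers 4 rose and 3 fell, with sums of 817 to 1289. The 4 were 1 without EtBr replicate 1 and 2 without water replicate 1 or 2 or EtBr replicate 2 or 3, and the 3 were 1 without EtBr replicate 2 or 3. Of 10 shoot markers 0 rose (0 at an unadjusted p under 0.05 and by edgeR) and 3 fell under doxycycline, and 2 rose and 7 fell under EtBr. The 3 were 1 without water replicate 1 or 2 or doxycycline replicate 2 or 3. LHCB2.1, a chlorophyll-binding protein gene whose close copies may share its reads, rose under EtBr from 218 ± 7.74 to 832 ± 98.9 (limma adjusted p = 2.7e-05), PSAD1, of photosystem I, fell from 14690 ± 1630 to 4632 ± 199 (limma adjusted p = 3.6e-05), and FAMA, of guard cells, fell from 403 ± 10.4 to 165 ± 8.36 (limma adjusted p = 0.00015). Shoot sums were 460824 to 516131 in water, 421707 to 479858 under doxycycline and 282767 to 415157 under EtBr. Most of each shoot sum was RBCS1A, a Rubisco gene named after its values were seen. The part of cell makeup in the suberin gene levels was not tested.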

How the data were processed

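RNA was sequenced from 9 seedling libraries, 3 in each of 3 groups, made with a NEBNext Ultra kit per the labels' protocols. Tools listed per the submitters' processing notes, without roles, are DESeq 1.18.0, HTSeq 0.6.1, TopHat2 2.0.12, CASAVA 1.8 and Bowtie2 2.2.3. Genome build, read length, strand use and poly(A) selection: not given in the sources used here.

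The authors deposited 1 table for doxycycline and water (24434 genes) and 1 for EtBr and water (28956 genes). The deposited signal values are counts scaled by a size factor for each library: in all 12 library columns 100% of values were whole multiples of 1 read within 0.001 (in 4 the step lay near 1, where this check is weak). Both tables gave the same reads for water at 100% of their 24319 common genes. The authors' deposited log2 fold changes and p-values were used only where named. Recovered depth was 17724030 to 20330871 reads. Replicates differed by more than counting noise (lowest chi-square per degree of freedom 8.88), and each counted as 1 sample. Technical spread could give such values too, so they do not show that the replicates are independent, which the p-values assume.

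For printed levels, recovered reads were divided by size factors (median of ratios) computed jointly for the 9 libraries. Differences come from limma 3.58.1 in R 4.3.3 on log2(value + 1), using limma's trend option, Benjamini-Hochberg adjusted at 0.05 over every gene in a table, without a replicate block. EtBr against doxycycline used the joint scale, which differs from the tables by 0.01 log2 for doxycycline and 0.02 for EtBr. Alternatives were pseudocounts of 0.1 and 5, a mean of at least 10, scaling to total reads, TMM, a replicate block, each library left out, edgeR 4.0.16 on recovered reads, and, chosen after seeing the data, the authors' adjusted p.

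The 9 genes and all lists were chosen with earlier results of these data known. Named genes were all pathway genes and regulators, the 3 smallest adjusted p of each other list among called genes with a mean of at least 10, and the 10 genes most correlated with the pattern of the 9. A gene that this rule names among the endodermis markers is not reported here. Of 29071 gene identifiers, 28255 matched RefSeq TAIR10.1, where 99.9% kept the tables' start and end. Scripts were tested on simulated data.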

Additional observations from a re-analysis of the deposited data

How the results depend on the processing

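No result reversed its direction under any alternative run on called values. Over all genes, doxycycline gave 2868 calls, 777 to 1980 with 1 library left out, 2143 with the replicate block and 3430 by the authors' adjusted p. EtBr gave 16040 calls (13307 to 15487 with 1 library left out, 15726 with the replicate block), and EtBr against doxycycline 13928 (11693 to 14269, and 13879 with the block). Whether the replicate numbers pair the libraries was not settled. Correlations of same-numbered deviations ran from −0.14 to 0.21, and of differently numbered ones from −0.19 to 0.22. Between EtBr and doxycycline the same-numbered ones were 0.04, 0.10 and 0.21. With the block, phenylpropanoid genes were 1 lower under doxycycline and 1 higher under EtBr, cutin and wax genes were 1 lower under doxycycline, LTPG15 passed under doxycycline (limma adjusted p = 0.031) and MYB93 did not under EtBr (limma adjusted p = 0.06). Beyond these, the block changed no call of a gene named by rule and no list count by over 1.5 times.

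By the authors' adjusted p, 5 phenylpropanoid genes, 1 cutin and wax gene and 1 endodermis marker were lower under doxycycline. Cutin and wax genes lower under doxycycline were also 1 with a pseudocount of 5, a mean of at least 10 or edgeR. Other root markers lower under doxycycline were 3 with a pseudocount of 0.1 or a mean of at least 10. With libraries scaled to their total reads, EtBr left 1 regulator lower and 1 endodermis marker higher than water, and 1 regulator higher than doxycycline. With a mean of at least 10, 2 cutin and wax genes were higher under EtBr than in water, and 1 regulator was higher than under doxycycline. The cause was not tested. The FAR4 difference under EtBr was −2.64 with a pseudocount of 5, since so few reads were left.

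With 1 library left out, counts under doxycycline ranged from 3 to 4 higher and 0 to 1 lower for other suberin genes, 2 to 5 and 0 to 1 for regulators, 0 to 1 and 0 to 3 for phenylpropanoid genes, 0 and 0 to 2 for cutin and wax genes, and lower from 2 to 3 for other root and 1 to 2 for shoot markers. Under EtBr they were 1 to 2 higher and 6 to 7 lower for other suberin genes, 2 to 3 and 1 to 2 for regulators, 0 and 3 to 8 for phenylpropanoid genes, 2 to 3 and 12 to 14 for cutin and wax genes, and 1 to 4 and 1 to 3 for other root markers. Against doxycycline, EtBr gave 1 to 2 higher other suberin genes, 0 to 1 higher and 3 to 5 lower regulators. The median of the 9 genes ran from 1.82 to 2.52 under doxycycline, −1.38 to −0.56 under EtBr and −3.68 to −3.12 between them. FAR4 and KCS2 under EtBr rest on 18 and 31 reads, and MYB9 in water on few, which limits their folds.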

Other observations

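Relatives of the 9 genes were looked at after their values were seen, and their levels are given with no test. In the fatty acyl reductase family, FAR6 and FAR7 had 0 reads in each water library and stood at 34.7 ± 3.30 and 23.6 ± 6.85 normalized counts under EtBr (SD, n = 3, on the scale of the EtBr table), so FAR1 was not alone in lying above water there. FAR8, next of kin to FAR5 at 86.8% identity, stood at 0.965 ± 1.01 under EtBr and at 0 reads in water. None of FAR6, FAR7 and FAR8 was analysed here under doxycycline.

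KCS5 stood at 617 ± 115 normalized counts in water, 562 ± 88.3 under doxycycline and 127 ± 10.104 under EtBr, and KCS8 at 1834 ± 316, 1525 ± 185 and 339 ± 81.5, in that order. GPAT3, an acyltransferase gene of the GPAT5 family, stood at 926 ± 33.7, 699 ± 147 and 199.9 ± 7.74, where GPAT5 was highest under doxycycline. Other relatives lay above water under EtBr. KCS17 stood at 4.50 ± 2.27, 12.5 ± 5.15 and 29.2 ± 12.9, and GPAT1 at 72.1 ± 3.63, 66.6 ± 20.3 and 146 ± 80.1. Of the 22 listed relatives measured under EtBr, 14 had differences from water above 0. Their median was 0.40, beside 0.39 over all genes.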
